A study of Mus musculus with 42 samples.

Results

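The 7 genes of thermogenic brown fat, Ucp1, Cidea, Cox8b, Cox7a1, Dio2, Elovl3 and Prdm16, were followed through aorta and skeletal muscle of healthy and diabetic mice. They were chosen by name, as the probes that the array design assigns to these symbols, and make up 7 of the 21186 genes with a symbol on the array, each with 1 probe. Total RNA was measured on 42 single-colour Agilent arrays, from 3 male adult mice in each of 7 groups and from 2 tissues of each group. Group G was healthy C57 (C57BL/6) mice and group A was KK/Ay mice, an inbred strain that carries the yellow agouti allele and becomes obese and diabetic. Group C, the macroangiopathy model, was KK/Ay mice that were also fed a diet rich in fat and given L-NAME, which blocks nitric oxide synthase. The untreated groups had saline by gavage. Groups B, D, E and F were mice of that same model, diet and L-NAME included, that were treated by gavage with SHENQI compound, with its yangyinyiqi part, with its huoxue part or with rosiglitazone, an agonist of the nuclear receptor PPARgamma. All 6 diabetic groups were KK/Ay and only group G was C57, so strain and diabetes cannot be told apart in any comparison with group G. No source used here says which skeletal muscle was taken or whether the fat around the aorta was removed.

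Brown fat makes heat by letting protons return across the inner mitochondrial membrane through UCP1 without making ATP. Noradrenaline from sympathetic nerves starts this through beta-adrenergic receptors and cAMP, which release fatty acids for combustion and switch on Ucp1 and Dio2. The fat that surrounds the thoracic aorta of mice resembles brown fat, whereas skeletal muscle makes heat mainly by shivering and by calcium cycling and has little UCP1. Among the 7 genes, Ucp1 is the effector, Cidea encodes a protein of the lipid droplet surface, and Cox8b and Cox7a1 encode forms of 2 cytochrome c oxidase subunits that heart, skeletal muscle and brown fat share. Dio2 encodes the deiodinase that converts thyroxine to active thyroid hormone, Elovl3 encodes an elongase of very long chain fatty acids, and Prdm16 encodes a transcriptional regulator of brown fat identity. Elovl3 and Cidea are also made by the sebaceous glands of skin.

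The sequences before the start sites of Ucp1, Dio2, Cox7a1 and Prdm16 are shown because these 4 genes had higher levels in skeletal muscle of both group A and group C than in that of group G, which is described further on. The promoter table of RefSeq (GRCm38.p6) matched 5 of the 7 genes and did not list Cidea or Elovl3. Each run gives the 250 bases before the annotated start, 5′ to 3′ on the strand of the gene, with matches to the motifs searched in capitals. The Ucp1 window is chr8:83290098-83290347 on the + strand, that of Dio2 is chr12:90739039-90739288 on the - strand, that of Cox7a1 is chr7:30183921-30184170 on the + strand and that of Prdm16 is chr4:154636874-154637123 on the - strand.
Ucp1: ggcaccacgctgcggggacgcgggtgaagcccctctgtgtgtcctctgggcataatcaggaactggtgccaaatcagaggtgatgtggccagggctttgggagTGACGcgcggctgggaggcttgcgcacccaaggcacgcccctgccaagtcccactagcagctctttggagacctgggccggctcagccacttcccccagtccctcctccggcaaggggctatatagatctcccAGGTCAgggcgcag
Dio2: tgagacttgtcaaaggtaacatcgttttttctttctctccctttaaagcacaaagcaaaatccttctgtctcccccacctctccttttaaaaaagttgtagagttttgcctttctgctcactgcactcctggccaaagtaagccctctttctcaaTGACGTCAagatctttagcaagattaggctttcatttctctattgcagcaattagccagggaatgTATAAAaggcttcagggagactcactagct
Cox7a1: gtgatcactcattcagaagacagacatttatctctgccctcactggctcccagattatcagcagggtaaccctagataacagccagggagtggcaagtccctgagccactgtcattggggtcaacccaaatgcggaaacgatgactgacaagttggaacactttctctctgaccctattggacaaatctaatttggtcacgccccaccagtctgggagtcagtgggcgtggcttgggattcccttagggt
Prdm16: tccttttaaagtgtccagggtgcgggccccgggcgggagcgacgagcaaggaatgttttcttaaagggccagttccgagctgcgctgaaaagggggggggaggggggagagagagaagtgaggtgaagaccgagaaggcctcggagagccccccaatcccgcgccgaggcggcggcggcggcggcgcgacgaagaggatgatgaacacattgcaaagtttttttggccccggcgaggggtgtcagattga
The motifs were searched on both strands. The full cAMP response element TGACGTCA was present in the Dio2 window at position -95, counted back from the start, and in 1.55% of the 32851 windows of the table. Its core TGACG, which lies within the full element in Dio2, was present in the Ucp1 window at position -147 and in 17.8% of all windows. The nuclear receptor core AGGTCA was present in the Ucp1 window at position -14 and in 14% of all windows, and its direct repeat with 1 base between the copies was present in 11 windows, none of them of these genes. The TATAAA box was present in the Dio2 window at position -30 and in 12.4% of all windows. The Cox7a1, Cox8b and Prdm16 windows held none of these letters. Of all windows the median GC content was 52.4%, against 64.8% for Ucp1, 41.6% for Dio2, 51.2% for Cox7a1 and 62.4% for Prdm16.

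The probes lie, in the mm9 coordinates of the array files, at chr8:85821788-85821847 for Ucp1, chr7:148084852-148084911 for Cox8b, chr12:91963235-91963294 for Dio2 and chr19:46209762-46209821 for Elovl3. Levels are log2 intensities after background correction and quantile normalization over all arrays, so 1 unit is a doubling, and a level of a gene is compared only with levels of the same gene. Between 23840 and 30274 of 41174 probes were well above background on the aorta arrays and between 20200 and 26844 on the muscle arrays, by the mark of the scanner software. In bulk tissue, fewer cells of a type and less RNA per cell cannot be told apart. Of the aorta arrays, healthy array 1 stood apart: its mean level over 7 smooth muscle markers was 9.31, against 11.71 to 13.66 on the other 20, and its mean over 7 adipocyte markers was 12.51, the second lowest of 21. Of the 8 skeletal muscle markers 7 or 8 were well above background on each aorta array too, where their mean ranged from 7.61 to 15.35, and on the muscle arrays they lay between 16.11 and 16.79. The smooth muscle and adipocyte markers were well above background on all aorta arrays. So were 6 cardiac markers, whose mean ranged from 6.35 to 11.98 there and from 7.53 to 7.98 on the muscle arrays. Their part in the Cox8b and Cox7a1 levels of aorta was not tested. The arrays lay on 11 slides of up to 4, and the muscle arrays of groups G, E and F lay on 3 slides that held no muscle array of groups A, B, C and D.

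Ucp1, Cidea, Cox8b, Cox7a1, Dio2 and Prdm16 were well above background on all 21 aorta arrays, and Elovl3 on 14. In healthy mice, Ucp1 was at 14.98, 17.45 and 16.47 in aorta and at 5.39, 5.29 and 5.50 in muscle, where its probe was not well above background on any of the 3 arrays. The tissues did not overlap, and the aorta level was at least 1688-fold higher, a bound against the dimmest signal that was well above background. The fitted Ucp1 difference was 10.91 log2 units and ran from 9.50 to 14.34 over 17 alternatives. The bound therefore holds for the main processing only. Cidea was 7.13 ± 0.55 (SE, n = 3 against 3) log2 units higher in aorta, Dio2 3.96 ± 0.55 and Elovl3 4.39 ± 0.85. These 4 of the 7 genes were higher in aorta at an adjusted p below 0.05 (limma, 42 arrays), where 14.4% of the 16199 genes tested were. The cytochrome c oxidase genes were bright in both tissues and did not pass: Cox8b differed by -0.09 ± 0.38 with an adjusted p of 0.896 and Cox7a1 by 0.42 ± 0.49 with an adjusted p of 0.558. Prdm16 was 0.95 ± 0.41 higher in aorta with an adjusted p of 0.083. Without healthy aorta array 1 it was 1.61 higher with an adjusted p of 0.00146. Without healthy aorta array 2 it was only 0.17 higher with an adjusted p of 0.746, so the size of this difference depends on single arrays.

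Over all 7 groups the same order of tissues held for Ucp1, whose aorta level was 8.42 to 9.98 log2 units higher in the 6 KK/Ay groups with adjusted p values of at most 1.71e-13, beside the bound for group G, and for Cidea, 5.61 to 7.13 units higher. Dio2 and Prdm16 were called higher in aorta in 6 of 7 groups. Of all genes 30.4% were called in either direction in group G, 40.3% in A, 45.5% in C, 42.2% in B, 44.1% in D, 50.4% in E and 47% in F, and higher in aorta 19.3% in A, 22.1% in C, 20.1% in B, 21.2% in D, 24.7% in E and 21.6% in F. Elovl3 was called higher in aorta only in group G, of the 7 groups tested, and its difference ranged from -1.08 to 4.39. Cox8b and Cox7a1 passed in none of the 7 groups by limma, with the lowest adjusted p at 0.244 and 0.0807.

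**Figure D1:**
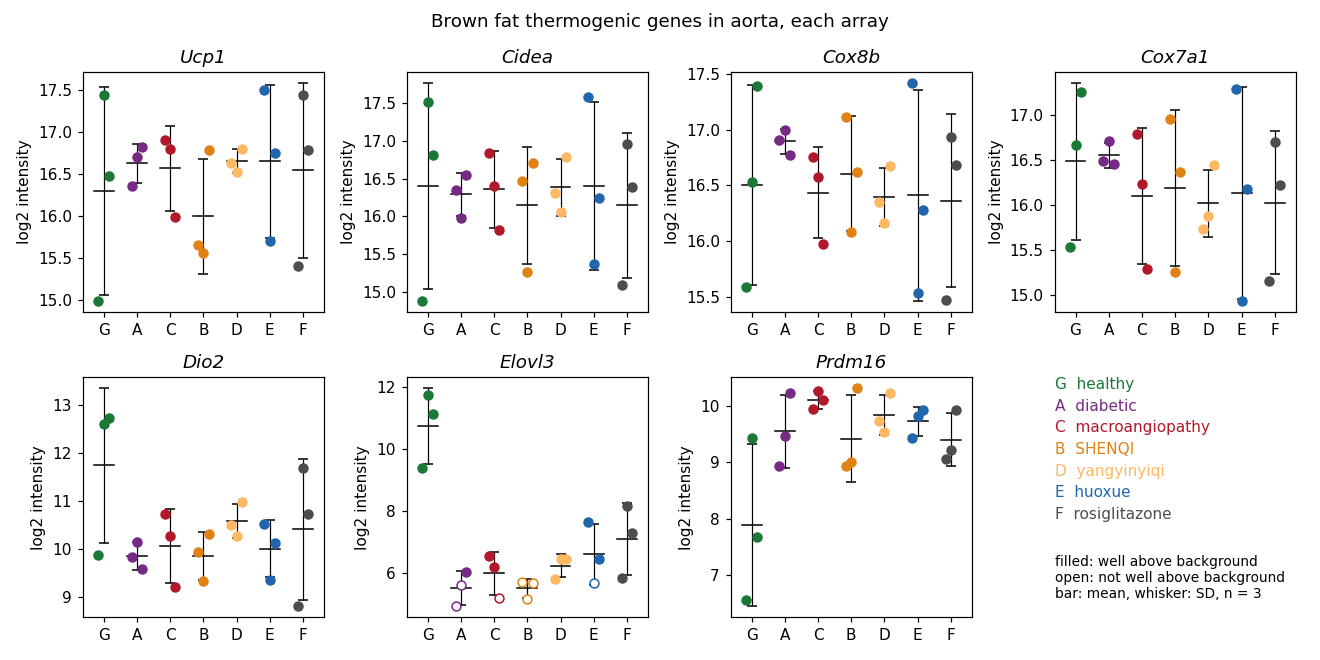
Log2 intensity of each gene on each aorta array (points, in replicate order from left to right), by group on the horizontal axis, with the mean (bar) and SD (whisker) of 3 arrays. The 3 healthy arrays of Elovl3 lie between 9.38 and 11.73, above all 18 KK/Ay arrays, which lie between 4.92 and 8.15.

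In aorta, the clearest difference between KK/Ay and healthy mice was in Elovl3. Its level was 9.38, 11.73 and 11.12 in group G, 4.92, 5.60 and 6.03 in group A and 6.56, 6.20 and 5.21 in group C. All healthy arrays were above all arrays of both diabetic groups, and the probe was well above background on 3 of 3, 1 of 3 and 2 of 3 arrays. Elovl3 fell by 5.22 ± 0.63 log2 units in A vs G, a 37.4-fold lower level (adjusted p = 0.000319), and fell by 4.76 ± 0.63 in C vs G, a 27.0-fold lower level (adjusted p = 0.00059). These comparisons share the 3 healthy arrays. The 3 aorta arrays of group C lay on slide 6 and the healthy ones on slides 1 and 2, so slide and group cannot be told apart in C vs G. Within slide 1, which held 2 healthy arrays and 1 of group A, the difference was -5.33. With the adipocyte marker level of each array as a covariate it was -5.31 in A vs G and -4.37 in C vs G, and both calls held. Over all alternatives the difference ran from -7.64 to -2.49 in A vs G and from -7.06 to -2.16 in C vs G. The calls were lost where the fit had only the 6 arrays compared (adjusted p = 0.0551 and 0.0741), and where 12 arrays of both tissues were fitted together (-2.49 and -2.16, adjusted p = 0.217 and 0.221).

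Elovl3 was the only one of the 7 genes called in A vs G in aorta (limma, adjusted p below 0.05), where 3.42% of 15871 genes tested were called, 1.9% lower and 1.52% higher. In C vs G, 2 of 7 were called, Elovl3 lower and Prdm16 higher, where 6.35% of the genes were called, 3.1% lower and 3.25% higher. At an unadjusted p below 0.05, 3 of 7 passed in each comparison, Elovl3 and Dio2 lower and Prdm16 higher, against 18.6% and 24.2% of all genes. The groups did not overlap for 1 of 7 in A vs G and 2 of 7 in C vs G, against 18.1% and 27.8% of all genes. The median difference of the 7 genes was 0.07 in A vs G and -0.07 in C vs G, against a median of 0.02 over all genes tested in each.

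Dio2 levels in aorta were 9.88, 12.61 and 12.73 in group G, 9.83, 10.14 and 9.58 in group A and 10.72, 10.27 and 9.20 in group C. Healthy arrays 2 and 3 were above every diabetic array of these groups, and healthy array 1 lay among them. The difference was -1.89 ± 0.71 in A vs G (adjusted p = 0.16) and -1.68 ± 0.71 in C vs G (adjusted p = 0.159). Without healthy array 1, the array that stood apart, the Dio2 difference was -2.82 in A vs G (adjusted p = 0.0234) and -2.61 in C vs G (adjusted p = 0.0306), and with the adipocyte level as a covariate the adjusted p values were 0.00263 and 0.0352. With other single arrays left out the differences were as small as -1.40 and -1.18, with adjusted p values up to 0.338 and 0.415. Dio2 stayed uncalled under 20 of 24 alternatives in A vs G and 19 of 23 in C vs G.

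Prdm16 levels in aorta were 6.56, 9.43 and 7.67 in group G, 8.94, 9.47 and 10.24 in group A and 9.96, 10.27 and 10.11 in group C. Group C did not overlap group G, and group A did. Prdm16 rose by 2.23 ± 0.54 in C vs G, 4.68-fold (adjusted p = 0.0251), where slide and group cannot be told apart, as for Elovl3. In A vs G it was 1.67 ± 0.54 higher with an adjusted p of 0.106 (limma). Without healthy array 2 it was 2.44 higher with an adjusted p of 0.00672. Without healthy array 1, the array that stood apart, the adjusted p was 0.415, the highest with any 1 array left out. Prdm16 stayed uncalled in A vs G under 21 of 24 alternatives. The call in C vs G was lost without healthy array 1 (1.56, adjusted p = 0.0989), healthy array 3 (adjusted p = 0.066), macroangiopathy array 2 (adjusted p = 0.104) or macroangiopathy array 3 (adjusted p = 0.091), and with scan day as a block (1.35, adjusted p = 0.143). The smooth muscle marker level moved with Prdm16: over 7 markers it ranged from 9.31 to 12.60 in group G, from 12.77 to 12.99 in group A and from 13.20 to 13.52 in group C, and its part in the result was not tested. Of these markers 0 of 7 were called in A vs G and 1 of 7, Smtn, in C vs G by limma, with 5 and 6 higher at an unadjusted p below 0.05.

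Ucp1, Cidea, Cox8b and Cox7a1 did not pass in either comparison in aorta, where their differences ranged from -0.38 to 0.39. Ucp1 was at 16.36, 16.70 and 16.82 in group A and at 16.91, 16.81 and 15.99 in group C, all within the healthy range of 14.98 to 17.45. The Ucp1 difference was 0.33 in A vs G, with a 95% interval from -0.93 to 1.58, and 0.27 in C vs G, with an interval from -0.99 to 1.52. Cidea differed by -0.11 and -0.04, Cox8b by 0.39 and -0.07, and Cox7a1 by 0.07 and -0.38.

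The rest of the pathway in aorta was read from lists of related genes. Beside the counts below, 1.52% of all genes were called higher and 1.9% lower in A vs G, and 3.25% and 3.1% in C vs G. Of 17 brown fat regulators tested, 1 fell in A vs G, Irf4, a partner of PGC-1alpha in thermogenic transcription, with a difference of -2.24 (adjusted p = 0.0267), and 0 passed in C vs G by limma, with 3 lower at an unadjusted p below 0.05. Ppargc1a, the coactivator of mitochondrial biogenesis, differed by -0.69 and -1.07 and did not pass. Of 12 genes of adrenergic and thyroid signalling, Adcy3, an adenylyl cyclase, fell in both comparisons (-1.31 and -1.41), and Adrb3, the beta-3 receptor of fat, differed by -0.65 and -0.67 without passing (adjusted p = 0.239 and 0.163). Of 22 genes of fuel use, 2 fell in A vs G and 3 in C vs G and 0 rose, with a list median of -0.30 and -0.74. They were Me1, which supplies NADPH for fatty acid synthesis (-3.26 and -3.05), Acsl5, a fatty acyl-CoA synthetase (-2.60 and -2.43), and, in C vs G, Slc27a2, a fatty acid transporter (-1.49). Among 13 paralogs of the 7 genes, 0 passed in A vs G, with 2 lower at an unadjusted p below 0.05, and 1 in C vs G, Elovl6, the elongase of palmitate, with -2.85 (adjusted p = 0.0344), beside -2.52 in A vs G (adjusted p = 0.0785). Of 7 secreted factors, Bmp8b, which raises the response of brown fat to noradrenaline, fell in both (-1.26 and -1.58). Of the 6 beige fat markers tested, 0 passed in either, with 2 and 1 higher at an unadjusted p below 0.05.

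Fat markers in the same arrays moved in both directions. Of 7 adipocyte markers 0 passed in A vs G or C vs G in aorta by limma, with 1 higher in the first and 1 lower in the second at an unadjusted p below 0.05, and their mean level ranged from 12.51 to 14.81 in group G, from 13.96 to 14.33 in group A and from 13.11 to 14.34 in group C. Of 6 white fat markers, Lep, the leptin gene, rose by 2.84 and by 2.16, and Retn, the resistin gene, fell (-3.42 and -3.93), in A vs G and C vs G. The red cell genes were higher in the diabetic aorta, 1 of 3 called in A vs G and 3 of 3 in C vs G, and their part in these results was not tested.

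**Figure D2:**
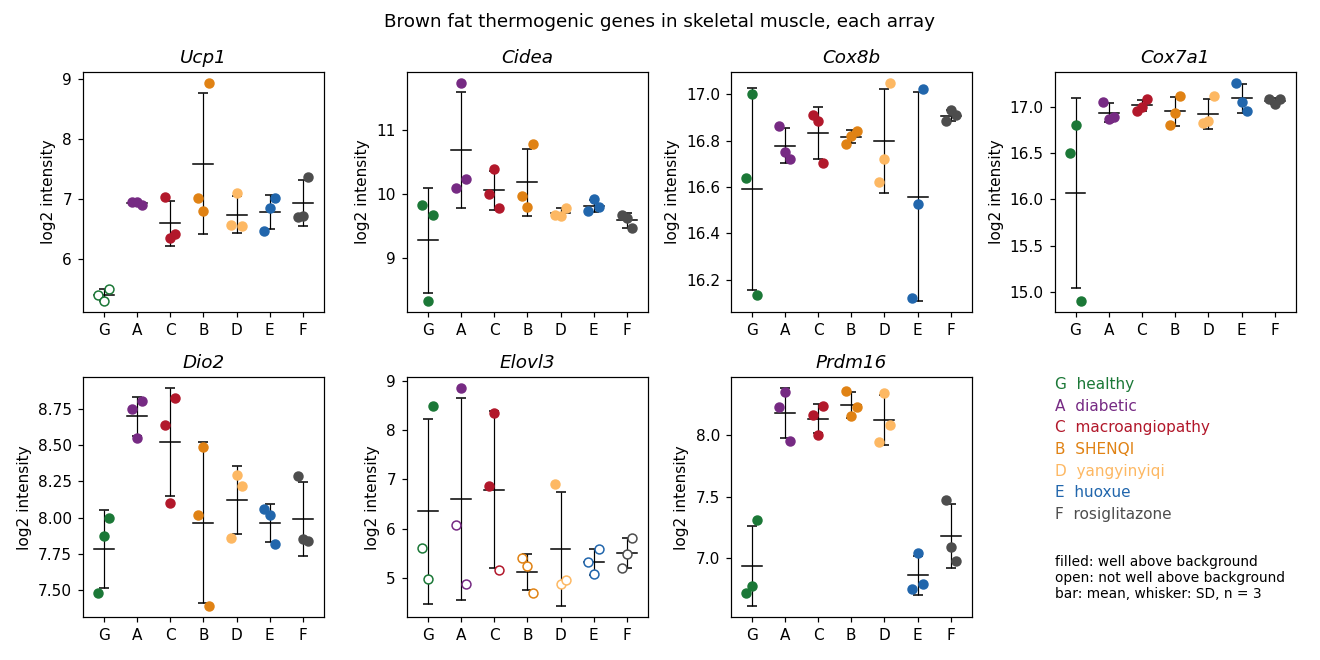
Log2 intensity of each gene on each skeletal muscle array, drawn as for aorta, with open points where the probe was not well above background. The 18 KK/Ay arrays of Ucp1 lie between 6.34 and 8.93, above the 3 healthy arrays, and Prdm16 lies between 6.72 and 7.47 in groups G, E and F and between 7.94 and 8.36 in groups A, C, B and D.

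In skeletal muscle, Ucp1 was low but higher in diabetic than in healthy mice. Its level was 5.39, 5.29 and 5.50 in group G, 6.94, 6.95 and 6.89 in group A and 7.02, 6.34 and 6.41 in group C. The healthy arrays were all below the diabetic ones, and only the diabetic arrays were well above background. Ucp1 rose by at least 2.54-fold in A vs G (fitted log2 difference 1.53 ± 0.38, adjusted p = 0.00715) and by at least 2.01-fold in C vs G (1.20 ± 0.38, adjusted p = 0.0296). With a normexp offset of 50, which flattens dim signals, the differences were 0.69 (adjusted p = 0.0849) and 0.50 (adjusted p = 0.215), which is under those bounds. With the authors' deposited log2 values they were 3.91 (adjusted p = 0.000141) and 3.33 (adjusted p = 0.000588), so the size of the difference depends on how dim signals are treated. With quantile normalization within muscle they were 1.07 (adjusted p = 0.0315) and 0.81 (adjusted p = 0.101). The call in C vs G was also lost without healthy array 1 (adjusted p = 0.0634), healthy array 2 (adjusted p = 0.056), macroangiopathy array 1 (adjusted p = 0.128) or macroangiopathy array 3 (adjusted p = 0.0517). The mean level of 7 adipocyte markers ranged from 11.76 to 13.04 in group G, from 11.27 to 11.68 in group A and from 10.86 to 11.88 in group C, and its part in the result was not tested.

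In muscle, 5 of the 6 genes tested were called in A vs G, all higher, where 26.4% of 14228 genes were called, 15.6% higher and 10.8% lower. In C vs G 4 of 6 were called, all higher, where 24.8% of the genes were called, 14.7% higher and 10.2% lower. The groups did not overlap for 5 of 6 and 4 of 6 genes, against 30.6% and 30% of all genes, and at an unadjusted p below 0.05 38% and 36.7% of all genes passed. The median difference of all 7 genes, with the untested Elovl3 included, was 0.91 and 0.78, against 0.03 and 0.04 over all genes tested. With the spread taken over all 42 arrays of both tissues 0 of these genes were called in either comparison, and with array weights 2 were called in A vs G, Dio2 and Prdm16, and 1 in C vs G, Prdm16. Elovl3 was not tested in muscle, since in no group was it well above background on all 3 arrays.

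Prdm16 had the smallest adjusted p of the 6 genes in both comparisons. It was at 6.72, 6.78 and 7.31 in group G, 8.22, 8.35 and 7.95 in group A and 8.16, 8.0 and 8.23 in group C, with no overlap. Prdm16 rose by 1.24 ± 0.16 log2 units in A vs G, 2.36-fold (adjusted p = 4.92e-05), and by 1.20 ± 0.16 in C vs G, 2.29-fold (adjusted p = 7.55e-05). The slides move with these levels. Prdm16 ranged from 6.72 to 7.47 on the 9 arrays of the 3 slides that held groups G, E and F, and from 7.94 to 8.36 on the 12 arrays of the 3 slides that held groups A, B, C and D. No slide held muscle arrays of both sets, so slide and group cannot be told apart in A vs G or C vs G. With scan day as a block, an alternative chosen after the values were seen, the differences were 0.99 (adjusted p = 0.0113) and 0.95 (adjusted p = 0.0132). With the spread of all 42 arrays the adjusted p was 0.0554 and 0.0701.

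Dio2 in muscle was at 7.48, 7.87 and 8.0 in group G, 8.75, 8.55 and 8.80 in group A and 8.63, 8.10 and 8.82 in group C, again with no overlap. It rose by 0.91 ± 0.23 in A vs G, 1.88-fold (adjusted p = 0.00859), and by 0.73 ± 0.23 in C vs G, 1.66-fold (adjusted p = 0.0297). The call in C vs G was lost without healthy array 1 (adjusted p = 0.117), macroangiopathy array 1 (adjusted p = 0.0981) or macroangiopathy array 3 (adjusted p = 0.129). Cidea was at 9.82, 8.32 and 9.67 in group G, 10.09, 11.73 and 10.23 in group A and 10.0004, 10.38 and 9.77 in group C. It rose by 1.41 ± 0.39 in A vs G, 2.66-fold (adjusted p = 0.0128), and was 0.78 ± 0.39 higher in C vs G (adjusted p = 0.156). The call in A vs G was lost without healthy array 2, the lowest (0.94, adjusted p = 0.0556), or without diabetic array 2, the highest (0.89, adjusted p = 0.0732).

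The cytochrome c oxidase genes in muscle gave different calls. Cox7a1 was at 16.50, 16.81 and 14.90 in group G, 17.05, 16.87 and 16.88 in group A and 16.96, 17.00 and 17.08 in group C, so healthy array 3 was far below the rest. Cox7a1 rose by 0.86 ± 0.30 in A vs G (adjusted p = 0.0427) and by 0.94 ± 0.30 in C vs G (adjusted p = 0.0296). Without healthy array 3 these were 0.28 (adjusted p = 0.0911) and 0.36 (adjusted p = 0.034), and the calls were also lost without any 1 diabetic array (adjusted p from 0.0754 to 0.114) or any 1 macroangiopathy array (adjusted p from 0.0635 to 0.081). With the authors' deposited log2 values the adjusted p was 0.0709 and 0.0754. That array also had a skeletal muscle marker level of 16.16, the second lowest of the 21 muscle arrays, and the highest macrophage marker level, 9.08. Cox8b did not pass in either comparison, with differences of 0.19 (95% interval from -0.23 to 0.60) and 0.24 (from -0.18 to 0.66). With slide as a random block, 2 members were called in A vs G, Ucp1 and Prdm16, and 2 in C vs G, Cox7a1 and Prdm16. With scan day as a block, Prdm16 alone was called in each.

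**Figure D3:**
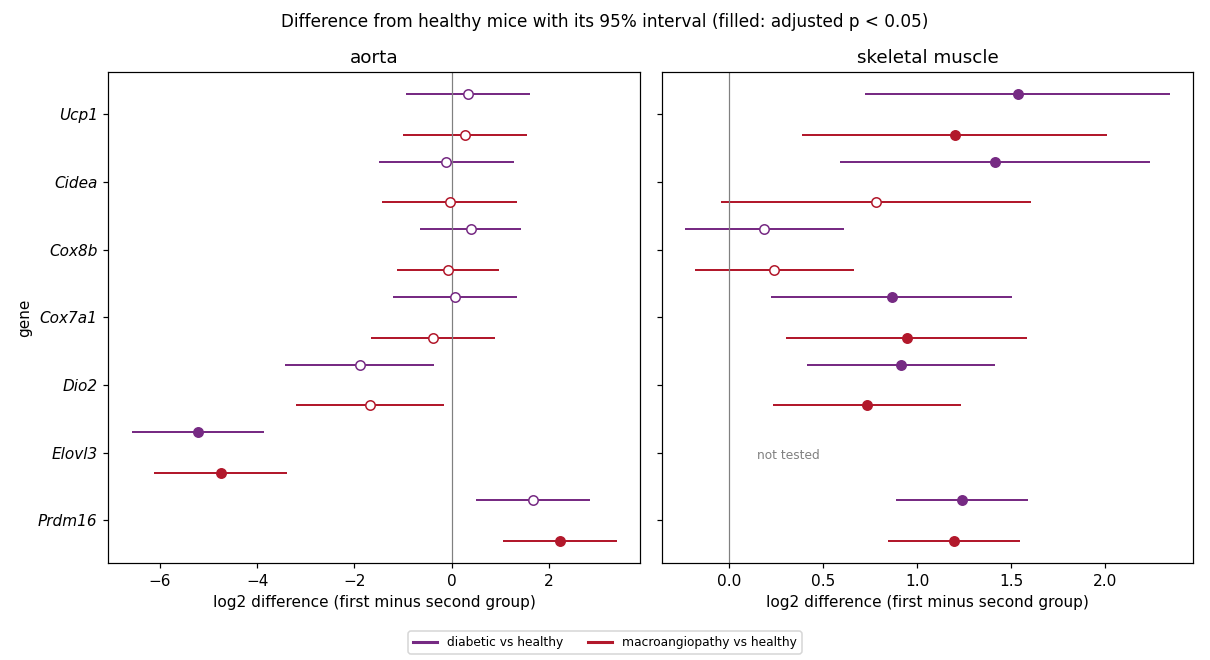
Log2 difference from group G (horizontal axis) of group A and group C for each gene, with its 95% interval, in aorta and in skeletal muscle, where filled points have an adjusted p below 0.05. Elovl3 is at -5.22 and -4.76 in aorta, and the filled points of muscle are all above 0.

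Elovl3 in muscle was well above background on 5 of 21 arrays, and these were arrays with high levels of skin genes. Healthy array 3 had a level of 8.49, diabetic array 2 of 8.85, macroangiopathy arrays 1 and 2 of 6.86 and 8.35, and yangyinyiqi array 1 of 6.91. The mean of 13 skin genes, such as the keratins Krt10 and Krt14 and the cornified envelope gene Lor, lay between 8.98 and 10.76 on these 5 arrays and between 6.21 and 9.08 on the other 16, among which healthy array 1 was the highest. The skin list was chosen after these values were seen. Diabetic array 2 also had the highest Cidea level of the muscle arrays, 11.73. With the skin level as a covariate Cidea was 1.54 higher in A vs G (adjusted p = 0.000585). For Elovl3 the part of skin RNA was not tested. In aorta 2 arrays stood out in the mean of the 13 genes, huoxue array 1 at 8.24 and rosiglitazone array 1 at 10.82, and their Elovl3 levels were 7.66 and 5.85. Krt10 was at 7.11 and 7.43 on them, against at most 7.31 on the other aorta arrays, and Krt14 was at 7.75 and 11.59. The source of this signal in aorta was not tested.

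**Figure D4:**
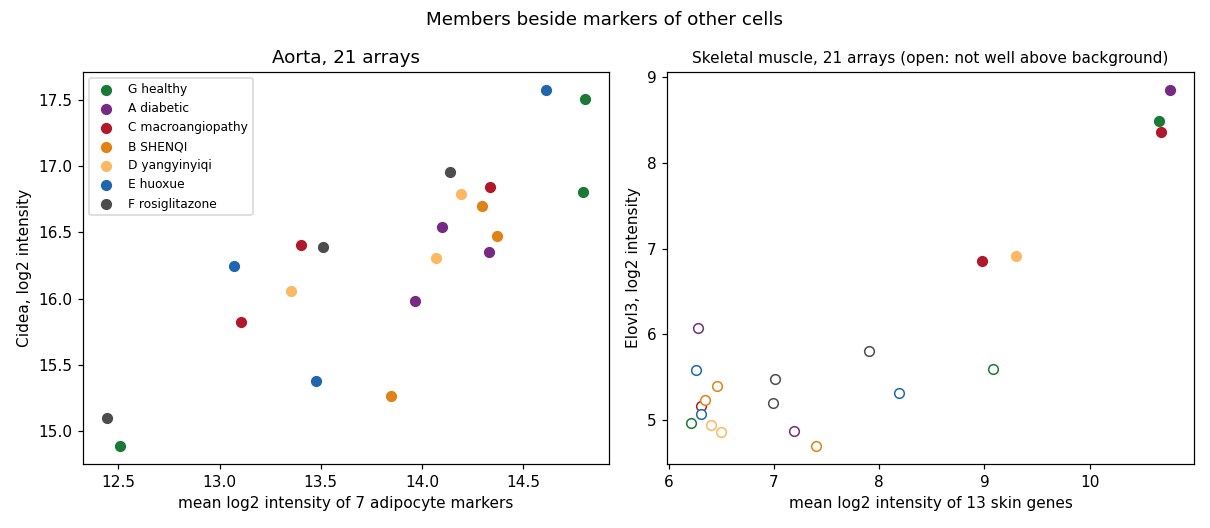
Left, Cidea on the 21 aorta arrays against the mean level of 7 adipocyte markers, where Cidea runs from 14.88 to 17.58. Right, Elovl3 on the 21 muscle arrays against the mean level of 13 skin genes, where the 5 arrays with Elovl3 well above background lie at 8.98 or more on the horizontal axis, as does 1 other. Colours are the groups, axes are log2 intensity.

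The other genes of the pathway in muscle moved in both directions. Beside the counts below, 15.6% of all genes were called higher and 10.8% lower in A vs G, and 14.7% and 10.2% in C vs G. Of 16 regulators tested, 4 rose and 3 fell in each comparison with group G, with a list median of -0.19 and -0.09. Ppara, a receptor that switches on fatty acid oxidation, fell (-1.16 and -1.12), as did Cebpb (-0.87 and -0.85), whereas Esrra, which acts with PGC-1 on mitochondrial genes, rose by 0.63 and by 0.67. Of 20 genes of fuel use, 3 rose in each, the fatty acid oxidation genes Acadl and Cpt2 and the mitochondrial gene Letmd1, and Pdk4 fell by 1.39 in C vs G. The 3 of 20 that rose are near the share of all genes that rose. Of 6 genes of heat production in muscle, Ckmt2, the mitochondrial creatine kinase, rose by 0.61 and by 0.76. Hoxc9 was the only called gene of 5 beige markers, higher by 0.89 and by 0.96, and Cox7a2, the form of the subunit found in most tissues, rose by 0.55 and by 0.62, whereas Cox8a fell in C vs G (-0.55). Of 7 adipocyte markers, Cfd, the adipsin gene, fell (-3.81 and -3.85), as did Plin4 (-1.06 and -1.10). Of 5 secreted factors 0 passed in either comparison by limma, also at an unadjusted p below 0.05. Macrophage markers were lower in 3 of 5 in each comparison, and their part in the results was not tested.

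Whether the diabetic difference was unlike between the tissues was tested with an interaction term over all 42 arrays. Only Elovl3 passed among the 7 genes, with a difference of differences (aorta minus muscle) of -5.47 ± 1.21 in A vs G (adjusted p = 0.0183) and of -5.20 ± 1.21 in C vs G (adjusted p = 0.0144), where 0.889% and 3.18% of the 16199 genes were called. Its muscle differences, 0.25 and 0.44, rest on arrays of which most were not well above background, so these values mainly restate the aorta difference. Dio2 was lower in aorta and higher in muscle in both comparisons, with an interaction of -2.80 ± 0.77 in A vs G (adjusted p = 0.0772) and -2.41 ± 0.77 in C vs G (adjusted p = 0.0793), which did not pass. For Ucp1, Cidea, Cox8b, Cox7a1 and Prdm16 the unadjusted p was above 0.05 in both. In C vs A and the 4 treatment comparisons 0 of 7 interactions passed by limma, and the lowest unadjusted p was that of Ucp1 with SHENQI, 0.0413, where 0% of all genes were called in C vs A and with SHENQI and yangyinyiqi, 0.13% with huoxue and 0.0123% with rosiglitazone.

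The added high-fat diet and L-NAME were read from C vs A, within KK/Ay mice. In neither tissue did a slide hold arrays of both groups. In aorta slide and group therefore cannot be told apart, and in muscle the slides are linked only by arrays of group B. By limma 0 of 7 genes passed in aorta and 0 of 6 in muscle, also at an unadjusted p below 0.05, where 1.79% and 3.7% of all genes passed, and 0% of all genes were called in either tissue. Only Cox8b in aorta did not overlap between the groups, 1 of 7 genes against 9.6% of all genes, and in muscle 0 of 6 against 13.8%. The differences in aorta ranged from -0.46 for Cox8b to 0.56 for Prdm16 and in muscle from -0.63 for Cidea to 0.08 for Cox7a1. For Ucp1 the 95% interval ran from -1.32 to 1.20 in aorta and from -1.14 to 0.47 in muscle.

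The treatments were compared with the untreated model, group C, whose 3 arrays per tissue all 4 comparisons share. In aorta only group D shared a slide with group C, so the other comparisons cannot be read within a slide. In aorta 0 of 7 genes passed in any of the 4 comparisons by limma, also at an unadjusted p below 0.05, and 0% of all genes were called. At that unadjusted p 1.36% of all genes passed with SHENQI, 0.378% with yangyinyiqi, 0.769% with huoxue and 2.9% with rosiglitazone. Groups did not overlap for 0 of 7 genes with SHENQI and with yangyinyiqi, against 6.68% and 5.83% of all genes, and for 1 of 7, Prdm16, with huoxue and with rosiglitazone, against 7.44% and 15.3%. Ucp1 was at 15.65, 15.55 and 16.79 in group B, 16.64, 16.53 and 16.81 in group D, 17.51, 15.70 and 16.75 in group E and 15.40, 17.45 and 16.79 in group F, against 15.99 to 16.91 in group C. Each treated group overlapped group C. The Ucp1 difference was -0.57 for SHENQI (95% interval from -1.83 to 0.69), 0.09 for yangyinyiqi, 0.08 for huoxue and -0.02 for rosiglitazone.

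Elovl3 showed the widest range of treatment differences in aorta. It was at 5.85, 8.15 and 7.30 in group F and well above background on all 3 arrays, against 6.56, 6.20 and 5.21 in group C. Group F overlapped group C, and the difference was 1.11 ± 0.63 (95% interval from -0.23 to 2.46, adjusted p = 1). In group B the probe was not well above background on any array, at 5.70, 5.15 and 5.67, which overlapped group C, and the difference was -0.48 (95% interval from -1.82 to 0.86, adjusted p = 1). All 12 treated arrays remained below the lowest healthy array, at 9.38. Cidea, Cox8b and Cox7a1 differed by between -0.21 and 0.17 in the 4 comparisons, Dio2 by between -0.21 and 0.52, and Prdm16 by between -0.71 for rosiglitazone and -0.28 for yangyinyiqi.

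**Figure D5:**
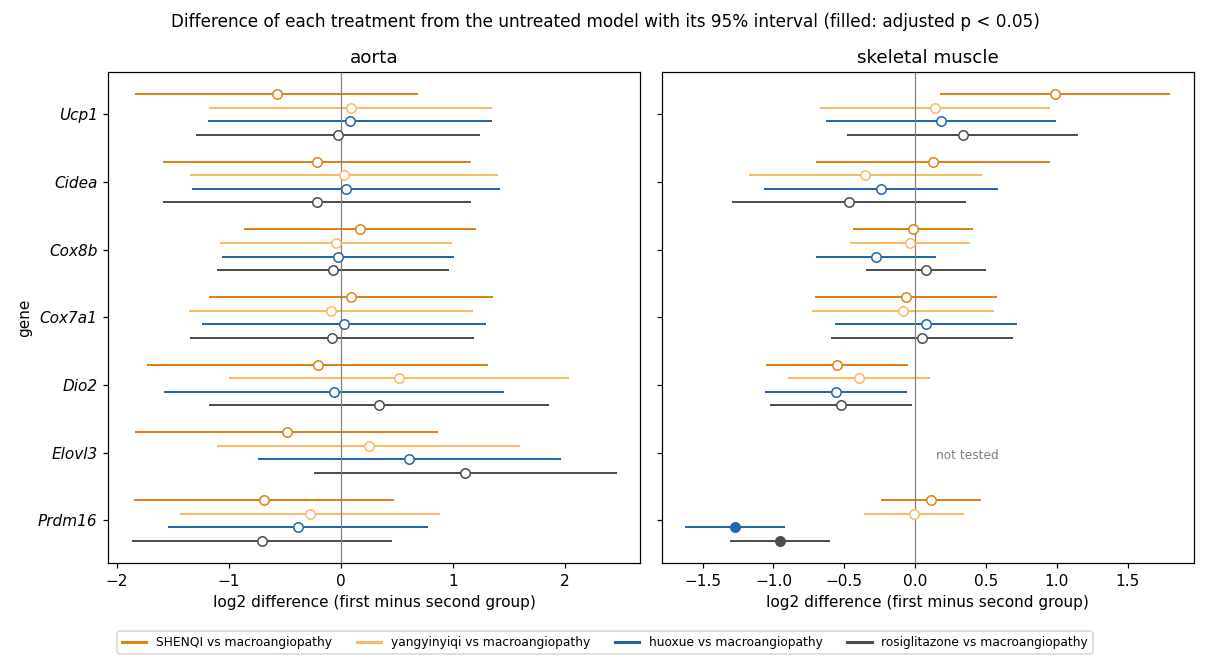
Log2 difference of each treated group from group C (horizontal axis) for each gene with its 95% interval, in aorta and in skeletal muscle, with filled points at an adjusted p below 0.05. The 2 filled points are Prdm16 in muscle, at -1.27 for huoxue and -0.95 for rosiglitazone.

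In muscle, Prdm16 was the only one of 6 genes called, and it was lower with huoxue and with rosiglitazone. It was at 6.75, 7.04 and 6.79 in group E and at 7.47, 7.09 and 6.98 in group F, against 8.0 to 8.23 in group C, with no overlap. Prdm16 fell by 1.27 ± 0.16 in E vs C, a 2.41-fold lower level (adjusted p = 7.26e-05), where 17.7% of genes were called, 9.92% lower and 7.79% higher, and fell by 0.95 ± 0.16 in F vs C, a 1.93-fold lower level (adjusted p = 0.00342), where 5.5% were called, 3.6% lower and 1.9% higher. The groups did not overlap for 2 of 6 genes in each, against 49% and 36.1% of all genes, and 2 of 6 passed at an unadjusted p below 0.05, against 32.5% and 21.6%. Groups E and F lay on other slides than group C, so slide and treatment cannot be told apart here. Skeletal muscle markers moved with Prdm16: their mean was 16.11 to 16.32 in group E and 16.43 to 16.55 in group F, against 16.73 to 16.79 in group C, and 5 of 8 fell with huoxue, such as Myh4, a fast myosin (-0.99), and Pvalb, a calcium buffer of fast fibres (-1.51), and 1 of 8, Myh4, with rosiglitazone (-0.51). Of 20 genes of fuel use 6 fell and 1 rose with huoxue, and 2 fell and 1 rose with rosiglitazone. The part of these markers in the Prdm16 result was not tested. With SHENQI and yangyinyiqi, which shared slides with group C, Prdm16 differed by 0.11 ± 0.16 and by -0.01 ± 0.16. Within slide 7, with 2 arrays of each, the SHENQI difference was 0.10. With the spread of all 42 arrays the adjusted p was 0.0681 with huoxue and 0.377 with rosiglitazone.

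Dio2 in muscle was lower than in group C with all 4 treatments and passed with none of them after adjustment (limma). It was at 8.02, 8.49 and 7.39 in group B, 7.86, 8.29 and 8.22 in group D, 8.06, 8.02 and 7.82 in group E and 8.29, 7.85 and 7.84 in group F, against 8.63, 8.10 and 8.82 in group C. Only group E did not overlap group C. The differences were -0.55, -0.40, -0.56 and -0.53 ± 0.23, with unadjusted p values of 0.0302, 0.109, 0.0296 and 0.0382 and adjusted p values of 1, 1, 0.109 and 0.203. The 4 comparisons share the arrays of group C. Groups E and F shared no slide with group C, so slide and treatment cannot be told apart for them. Dio2 had a median of 7.87 on the slides of groups G, E and F and of 8.39 on the slides of the other groups.

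Ucp1 in muscle was at 7.01, 6.79 and 8.93 with SHENQI, against 7.02, 6.34 and 6.41 in group C. The third SHENQI array was the highest of all 21 muscle arrays, and the groups overlapped. The difference was 0.99 ± 0.38 with an unadjusted p of 0.0193 and an adjusted p of 1, and without that array it was 0.31. That array also had the highest adipocyte marker level of the muscle arrays, 13.13, against 11.13 and 11.39 on the other SHENQI arrays, and the part of fat in it was not tested. With yangyinyiqi, huoxue and rosiglitazone Ucp1 differed by 0.14, 0.18 and 0.33. Cox8b and Cox7a1 differed by between -0.27 and 0.08 over the 4 treatments, and Cidea by between -0.47 and 0.13. By limma 0 of 6 genes passed with SHENQI, where 0% of all genes were called, with 1 higher and 1 lower at an unadjusted p below 0.05, against 1.22% of all genes. With yangyinyiqi 0 of 6 passed, also at an unadjusted p below 0.05, where 1.17% of all genes did. Groups did not overlap for 0 of 6 with either, against 7.83% and 8.69% of all genes.

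Across the 21 aorta arrays, the members were set against the mean level of 7 adipocyte markers, with a two-sided permutation test for 7 relations. Cidea had a Pearson r of 0.81 and a Spearman rho of 0.83 (adjusted permutation p = 7.00e-05 for each). Cox8b had 0.81 and 0.76 (adjusted permutation p = 7.00e-05 and 0.000303), and Cox7a1 0.76 and 0.82 (adjusted permutation p = 0.000163 and 7.00e-05). Dio2 had 0.64 and 0.61 (adjusted permutation p = 0.00345 and 0.00719) and Ucp1 0.61 and 0.50 (adjusted permutation p = 0.00475 and 0.0302). Elovl3 had 0.28 and 0.24 (adjusted permutation p = 0.258 and 0.343) and Prdm16 0.14 and -0.13 (adjusted permutation p = 0.557 and 0.561). Without rosiglitazone array 1 and healthy array 1, the arrays farthest from the median adipocyte level, r was 0.68 for Cidea, 0.70 for Cox8b, 0.71 for Cox7a1, 0.60 for Dio2, 0.35 for Ucp1, 0.53 for Elovl3 and -0.49 for Prdm16. The Ucp1 relation was weaker without those arrays. For Ucp1 r was 0.48 over the 18 KK/Ay arrays, which include rosiglitazone array 1, and 0.80 on deviations from group means. On deviations from slide means r was 0.89 for Cidea, 0.89 for Cox8b, 0.84 for Cox7a1, 0.83 for Ucp1, 0.70 for Dio2, 0.28 for Elovl3 and 0.39 for Prdm16, and on deviations from group means it was 0.81 for Elovl3. The raw permutation p values for r ran from 1e-05, the smallest that 100000 permutations can give, to 0.557.

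The genes whose levels ran most alike across the 21 arrays of a tissue are given as a description, by Pearson r over 21 arrays that share slides and normalization. In aorta, Ucp1 ran with Letmd1 (r = 0.95), Sdhd (0.90), Dhrs4 (0.89), Cidea (0.89) and Sgcd (0.88), out of 15578 genes searched. Cidea ran with Fam132a (0.95), Cpt2 (0.94) and Ndufb8 (0.94), and Cox8b and Cox7a1 ran with each other (0.94) and with subunits of respiratory complex I such as Ndufa13 (0.93) and Ndufb9 (0.97). Elovl3 ran with Orm1, Orm3 and Orm2 (0.94, 0.93 and 0.92, with a Spearman rho of 0.79, 0.73 and 0.70), which encode acute-phase plasma proteins. All KK/Ay aorta arrays of Elovl3 lay below the healthy ones, so its r also carries the difference between these groups. Dio2 ran with Cnnm2 (0.92) and Plin2 (0.90), and Prdm16 with Fstl1 (0.98) and Scx (0.96). In muscle, out of 13845 genes searched, the closest were 1110038F14Rik for Prdm16 (0.98), Cmbl for Cox7a1 (0.96, with a Spearman rho of 0.48), Ccdc58 for Cox8b (0.87), Itpr3 for Cidea (0.84), Blcap for Ucp1 (0.83) and Atg16l2 for Dio2 (0.82). Their Spearman rho was 0.90 for Prdm16, 0.67 for Cox8b, 0.50 for Cidea, 0.68 for Ucp1 and 0.79 for Dio2.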

How the data were processed

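Per the labels, the authors hybridized amplified, Cy3-labelled total RNA of aorta and skeletal muscle to single-colour Agilent mouse arrays. The submitters' processing notes name Agilent Feature Extraction 10.7. The deposited scanner files give the intensity of 45018 spots, 1639 of them controls, and log2 values that the authors deposited for 41267 probes follow the processed signal (Spearman at least 0.999954), and were an alternative. Groups come from the sample labels. The 7 members and all gene lists were chosen with earlier results of these data known.

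The median intensity was corrected with normexp (offset 0) and quantile normalized over 42 arrays in limma 3.58.1 (R 4.3.3, data.table version 1.17.8), irregular spots were set to missing, and spots and probes were averaged per gene. A gene was tested where all 3 arrays of at least 1 group had one of its probes well above background (15871 in aorta, 14228 in muscle, 16199 over both) with lmFit and eBayes over the 21 arrays of a tissue and Benjamini-Hochberg adjustment over all of them, and the tissue comparison and interactions over 42. The fit was tested on simulated data. The study's methods name 3 mice per group, the labels give only a number, and p values measure the spread between these samples. The number of arrays limits the precision. A fold is given as at least N where a group was not well above background on any array.

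Genes named were the 7 members, up to 4 called genes per list and comparison by adjusted p, and up to 5 most alike genes per member. The named alternatives were background correction, normalization, the deposited values, filters on dim probes, the brightest probe, other sets of arrays, eBayes options, array weights, slide, adipocyte level, replicate number and each array left out. The skin list, its covariate and scan day were added after the values were seen. Figures were made in Python 3.11.15 with matplotlib 3.10.9, pandas 2.3.3 and numpy 2.4.6. The adrenergic and thyroid list in muscle is not reported here.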

Additional observations from a re-analysis of the deposited data

Results flagged for a closer look

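For Elovl3 the fit over both tissues gave unequal differences between KK/Ay and healthy mice. The aorta difference minus the muscle difference was -5.47 in A vs G (adjusted p = 0.0183, limma interaction over 42 arrays) and -5.20 in C vs G (adjusted p = 0.0144). All 18 KK/Ay aorta arrays were below the 3 healthy ones, and in muscle the probe was well above background on 5 of 21 arrays and on all 3 arrays of no group, so the muscle side is mostly background and the value mainly restates the aorta difference. These comparisons share the healthy arrays. With the processed signal the difference in A vs G was -7.78 (adjusted p = 0.0923), and with the authors' deposited log2 values it was -7.96 (adjusted p = 0.0916) in A vs G and -7.57 (adjusted p = 0.0619) in C vs G.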

How the results depend on the processing

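Over all alternatives, 481 of 577 values of single members kept their direction and their side of the threshold, 77 lost the call, 17 gained it and 2 reversed. Both reversals were Dio2 in muscle with 12 arrays of both tissues fitted together, at -0.49 in A vs G and -0.47 in C vs G, a fit that averages the tissues. Of the counts of members called, 327 of 368 stayed within 1.5 times. Counts of 0 that stayed 0 are among them, such as those of C vs A and of each treatment in aorta. In these comparisons 0% of all genes were called in the main fit.

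The count in A vs G in aorta, 1, was 0 with probes well above background on all 21 arrays (a filter that drops Elovl3), 0 with the 6 arrays compared, 0 with 12 arrays of both tissues, 2 with the adipocyte level as a covariate, 3 with array weights and 3 with 42 arrays and 14 means. In C vs G in aorta, 2, it was 1 with that filter, 0 with 6 arrays, 1 with 12 arrays and 1 with scan day. In A vs G in muscle, 5, it was 2 with array weights, 2 with slide as a random block, 3 with 6 arrays, 0 with 12 arrays, 0 with 42 arrays and 1 with scan day. In C vs G in muscle, 4, it was 1 with array weights, 2 with slide as a random block, 2 with 6 arrays, 1 with 12 arrays, 0 with 42 arrays and 1 with scan day. In E vs C in muscle, 1, it was 2 with array weights, 0 with 12 arrays, 0 with 42 arrays and 2 with the skin level. In F vs C in muscle, 1, it was 2 with array weights, 0 with 12 arrays and 0 with 42 arrays. Healthy aorta against healthy muscle went from 4 to 2 with probes well above background on all arrays, which drops Ucp1 and Elovl3. With the processed signal the interaction count was 0 in A vs G and 2 in C vs G, from 1 in each. Beyond these filters the cause was not tested.

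Leaving out 1 array at a time gave counts from 1 to 2 in A vs G and in C vs G in aorta, from 3 to 5 in A vs G in muscle, from 1 to 4 in C vs G in muscle and from 4 to 5 between tissues, and did not move the other counts. Within a tissue, replicate numbers did not pair the samples of different groups, since deviations of arrays with the same number correlated from -0.55 to 0.62. Whether aorta and muscle arrays with the same number came from the same mouse was not tested. The fits over 42 arrays treated them as independent. With replicate number as a block 4 members were called in A vs G in muscle in place of 5, where Cox7a1 had an adjusted p of 0.0523, and no other call changed. Slide and group cannot be told apart for any member in muscle in A vs G, C vs G, E vs C or F vs C. Dim signals limit Ucp1 and Elovl3 in muscle.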
